A study of Rattus norvegicus with 17 samples.

Results

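The natriuretic peptide system was followed through 8 genes: the peptide hormones Nppa, Nppb and Nppc, the proteases Corin and Furin, and the receptors Npr1, Npr2 and Npr3. They were chosen by name as the hormones, processing enzymes and receptors of this system, and all 8 were found among the 14506 named genes of the table. Each had 1 probe set, so that no choice between probe sets was needed. RNA came from cultures of ventricular myocytes of newborn Sprague-Dawley rats, labelled as 5 days old, and was read on 17 Affymetrix arrays, 1 per sample. Of these, 6 cultures had received 10% uremic plasma taken before nocturnal hemodialysis (NHD, long dialysis given overnight) and 6 uremic plasma taken after NHD, also at 10%. A further 3 had received control plasma, whose share is not stated, and 2 phenylephrine, an agonist of alpha-adrenergic receptors that makes cultured myocytes grow, in a medium that is not stated. The labels call the samples biological replicates without saying whether they were separate cultures or who gave the plasma, so that p-values measure only the spread between these samples.

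Cardiac myocytes make atrial natriuretic peptide (ANP, from Nppa) and B-type natriuretic peptide (BNP, from Nppb) as larger precursors. The membrane protease corin cuts the ANP precursor, and furin, a protease of the Golgi, cuts those of BNP and of C-type natriuretic peptide (CNP, from Nppc). ANP and BNP act through NPR-A (Npr1) and CNP through NPR-B (Npr2), 2 receptors that make cyclic GMP, whereas NPR-C (Npr3) lacks that enzyme and removes all 3 peptides. In heart failure and in myocyte growth Nppa and Nppb are widely used as markers.

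Values are log2 expression values, so that a difference of 1 is a doubling, and levels are not compared between genes. They ran from 1.28 to 14.29 over the 17 arrays. Array medians lay between 6.89 and 7.03. Within an array, log2 values had an SD between 2.244 and 2.269 on control arrays 1 and 3 and before NHD arrays 1 and 5, and between 2.293 and 2.37 on the others. All 12 myocyte markers, such as Tnnt2, Myh6 and Ryr2, lay above the array median in every group, with a mean log2 level of 12.59 to 12.61 on control arrays and 12.64 to 13.14 on the plasma arrays of both NHD groups. Precision is limited by how few arrays there are, above all in the phenylephrine group. Before replicate 4 and after replicate 4 were the closest pair of all arrays (SD of their difference 0.205 over probe sets). For the 8 genes they differed by 0.11 log2 units on average and by at most 0.27, in Corin, although their labels put them in different groups.

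The stretches before the transcription starts of 5 of these genes are shown, for the neighbouring hormone genes Nppa and Nppb and for Corin, Npr1 and Npr3, which each passed in at least 1 comparison below. Each is 250 bases long, from RefSeq (build GRCr8), and is written 5′ to 3′ on the gene's own strand, ending at the base before the start. Capitals mark any of 4 motifs on either strand: the GATA motif (AGATAA or AGATAG and likewise TGATAA or else TGATAG), the TATA box (TATAAA), the M-CAT element (CATTCC) and the GC box (GGGCGG). No marked motif overlapped another. The table of starts also matched Nppc, with 6 of the 8 genes in all.
Nppa, chr5:163711934-163712183, plus strand: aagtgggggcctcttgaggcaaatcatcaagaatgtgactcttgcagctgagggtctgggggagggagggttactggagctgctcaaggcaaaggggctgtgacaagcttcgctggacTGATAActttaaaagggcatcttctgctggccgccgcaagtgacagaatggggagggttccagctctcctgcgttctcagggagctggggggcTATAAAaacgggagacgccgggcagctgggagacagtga
Nppb, chr5:163699758-163700007, plus strand: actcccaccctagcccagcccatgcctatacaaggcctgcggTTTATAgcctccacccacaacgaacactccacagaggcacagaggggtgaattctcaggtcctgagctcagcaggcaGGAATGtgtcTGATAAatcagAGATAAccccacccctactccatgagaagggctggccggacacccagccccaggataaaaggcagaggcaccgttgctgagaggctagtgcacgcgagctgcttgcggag
Corin, chr14:36035316-36035565, plus strand: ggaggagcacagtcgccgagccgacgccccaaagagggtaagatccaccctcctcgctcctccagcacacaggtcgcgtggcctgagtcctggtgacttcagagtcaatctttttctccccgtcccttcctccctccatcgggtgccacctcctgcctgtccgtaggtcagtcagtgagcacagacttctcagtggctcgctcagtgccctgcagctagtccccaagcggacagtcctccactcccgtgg
Npr1, chr2:178247089-178247338, minus strand: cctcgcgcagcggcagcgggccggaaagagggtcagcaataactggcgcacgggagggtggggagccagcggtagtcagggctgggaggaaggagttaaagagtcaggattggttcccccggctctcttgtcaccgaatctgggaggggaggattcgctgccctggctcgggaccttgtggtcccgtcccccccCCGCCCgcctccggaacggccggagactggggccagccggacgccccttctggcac
Npr3, chr2:62658766-62659015, minus strand: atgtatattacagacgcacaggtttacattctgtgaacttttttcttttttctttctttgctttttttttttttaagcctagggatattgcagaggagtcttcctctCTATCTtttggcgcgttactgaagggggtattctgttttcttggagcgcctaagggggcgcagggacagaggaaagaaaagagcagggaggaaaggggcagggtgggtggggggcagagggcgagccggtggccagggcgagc

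Nppa and Nppb are neighbours, with 0 protein-coding genes between them in the RefSeq order. The window of Nppa held 1 GATA motif, 132 bases before the start, and TATAAA on the gene's own strand, 39 bases before it. That of Nppb held 2 GATA motifs, at 121 and 110 bases before the start, and 1 M-CAT element. Its 1 match to TATAAA lay on the opposite strand, 208 bases before the start, unlike that of Nppa in place and strand. Npr3 held 1 GATA motif and Npr1 1 GC box, and the window of Corin held none of the 4. Of 33469 such windows over all genes of the table, 27% held the GATA motif, 12.9% the TATA box, 12.1% the M-CAT element and 30.5% the GC box. These are matches of letters only.

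Of the hormones, Nppa (probe set 10873899) was at the top of the scale on every array. It read 13.79, 13.79 and 13.80 with control plasma, and 13.92 and 13.93 with phenylephrine. With before NHD plasma it ran from 13.66 through a median of 13.78 to 13.85, and after NHD from 13.81 through 13.83 to 13.88. The after NHD and phenylephrine arrays did not overlap the controls, but the gaps were small. The mean was 0.13 ± 0.09 log2 units (SE) above control with phenylephrine and 0.05 ± 0.07 after NHD (limma, adjusted p = 0.322 and 0.652). Neither passed.

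How near the top of the scale this lies can be read from the arrays. Nppa was 0.27 to 0.57 log2 units below the brightest probe set of its array, within 0.5 on 16 of the 17 arrays, with only 15 to 39 probe sets above it. Its residual SD within groups was 0.043, at percentile 0.1 of all probe sets. The 198 probe sets with a mean of 13 or more had a median residual SD of 0.076, against 0.21 for all 29214. Fewer of them were called: 13.1% against 28.2% for after NHD against control plasma, and 6.06% against 18.7% for phenylephrine against control plasma. The gap was wider from the 6752 probe sets with a mean of 9 to 13, of which 44.2% and 32.6% were called. Whether a ceiling of the scale narrowed the Nppa differences was not tested.

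**Figure D1:**
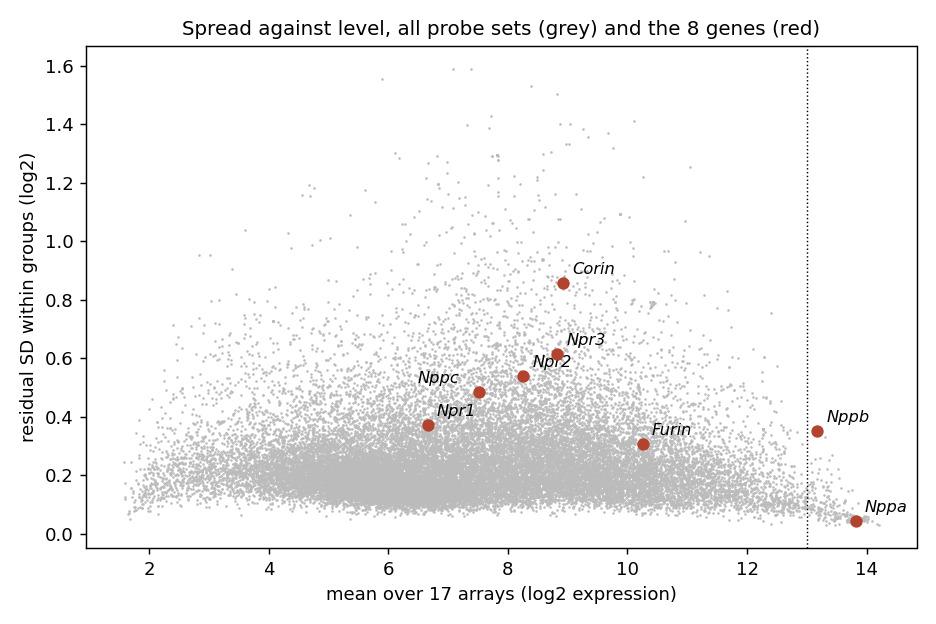
Residual SD within groups (log2, vertical) against the mean over the 17 arrays (log2 expression, horizontal) for all probe sets in grey and the 8 genes in red. The dotted line marks a mean of 13. Nppa sits in the narrow tip at the right with an SD of 0.043, Nppb above that tip at 0.351, and Corin has the widest spread of the 8 at 0.858.

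Nppb (probe set 10873895) was also bright but varied more. It read 13.28, 12.81 and 13.33 with control plasma, and 13.55 and 13.63 with phenylephrine. Before NHD it ran from 12.36 through 12.90 to 13.66, and after NHD from 12.91 through 13.24 to 13.65. Both phenylephrine arrays were above all controls and inside the range of both NHD groups. Phenylephrine was 0.45 ± 0.30 log2 units above control plasma (95% interval -0.18 to 1.08, adjusted p = 0.31) and 0.62 ± 0.27 above before NHD plasma (adjusted p = 0.209). The latter passed without the samples numbered 4 (0.76, adjusted p = 0.045), in a fit where 2399 probe sets were called in place of 1268. After NHD the mean was 0.29 ± 0.19 above before NHD (adjusted p = 0.442). At 0.54 to 1.85 log2 units below the array maximum, Nppb lay farther from it than Nppa. Its residual SD of 0.351 was above that of 82.9% of probe sets.

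Nppc (probe set 10929606) was near the middle of the arrays, between percentiles 51.1 and 71.6, where the table gives no call of detection. It read 7.66, 7.23 and 7.50 with control plasma and 7.37 and 7.27 with phenylephrine. In the before NHD group it ran from 6.98 through 7.35 to 8.63, and after NHD from 7.01 through 7.53 to 8.03. No comparison passed, with differences from -0.28 to 0.13 log2 units and adjusted p from 0.758 to 0.951. Its 4 highest arrays were before replicates 3 and 6 (8.63 and 8.14) and after replicates 6 and 3 (8.03 and 7.96). On these arrays the mean of 12 fibroblast markers was 9.14, 9.26, 8.86 and 9.15, above all other plasma arrays, which lay between 6.70 and 8.51. The mean of 10 leukocyte markers was 6.81, 6.55, 6.38 and 6.62 there, against at most 6.28 on the other plasma arrays. That of 11 endothelial markers was 7.45, 7.34, 7.11 and 7.30, against at most 7.11. On the phenylephrine arrays, where Nppc was 7.37 and 7.27, these means were 9.50 and 9.24 for fibroblast, 6.60 and 6.50 for leukocyte and 7.40 and 7.33 for endothelial markers. The part of these cells in the Nppc values was not tested. In such cultures, fewer cells of a type and less RNA per cell cannot be told apart.

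Of the proteases, Corin (probe set 10772490) showed the widest changes of the system. It read 7.34, 7.45 and 7.16 with control plasma. Before NHD it ran from 7.91 through 9.14 to 11.08, and after NHD from 8.49 through 9.53 to 10.07. Phenylephrine gave 8.55 and 8.93. Every array of the other 3 groups lay above every control array.

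Corin was 4.37-fold above control plasma after NHD, a log2 difference of 2.13 ± 0.55 (SE, n = 6 and 3, limma, adjusted p = 0.00891). This passed under all 24 alternatives run, with adjusted p from 0.000228 to 0.0422. Before NHD it was 3.90-fold above control plasma (1.96 ± 0.55, n = 6 and 3, adjusted p = 0.0485). That call was just inside the threshold and was lost under 15 of 24 alternatives. Among these were leaving out any control array (adjusted p = 0.192, 0.0741 and 0.192 without replicates 1, 2 and 3), before replicates 1, 2 or 6 (0.0631, 0.0922 and 0.0929), or after replicates 1, 2, 3, 5 or 6 (0.0592 to 0.0656). Either phenylephrine array left out gave 0.0643, and a term for the SD of each array 0.128. With phenylephrine it was 1.42 ± 0.70 log2 units above control plasma and did not pass (adjusted p = 0.174, 95% interval -0.07 to 2.91). With only these 2 groups in the fit, which leaves out the spread of the NHD groups, it passed at the same difference (adjusted p = 0.000991).

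Corin levels before and after NHD did not separate (0.16 ± 0.45, 95% interval -0.78 to 1.10, adjusted p = 0.893). The before NHD arrays were widely scattered, with an SD of 1.258 against 0.554 after NHD and 0.146 with control plasma. Before replicates 1, 2 and 6 read 11.08, 10.18 and 9.79, and replicates 3, 4 and 5 read 8.50, 8.21 and 7.91. The highest and lowest Corin levels outside the controls were thus both in the before NHD group.

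Furin (probe set 10723114) moved less. It read 9.74, 10.18 and 9.72 with control plasma and 11.04 and 10.57 with phenylephrine. Across before NHD arrays it ran from 9.91 through 10.21 to 10.96, and after NHD from 10.06 through 10.18 to 10.37. Both phenylephrine arrays lay above all control and after NHD arrays. With phenylephrine it was 1.90-fold above control plasma (0.92 ± 0.26, n = 2 and 3, adjusted p = 0.0216). That call was lost without phenylephrine replicate 1 (0.69), which leaves 1 array in that group. It was also lost without control replicates 1 or 3 (adjusted p = 0.0712 and 0.0717). Before NHD it was 0.45 ± 0.20 above control plasma and after NHD 0.31 ± 0.20 (adjusted p = 0.182 and 0.265). In the before NHD group replicates 1 and 2, the arrays highest in Corin, were also highest in Furin, at 10.96 and 10.71.

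**Figure D2:**
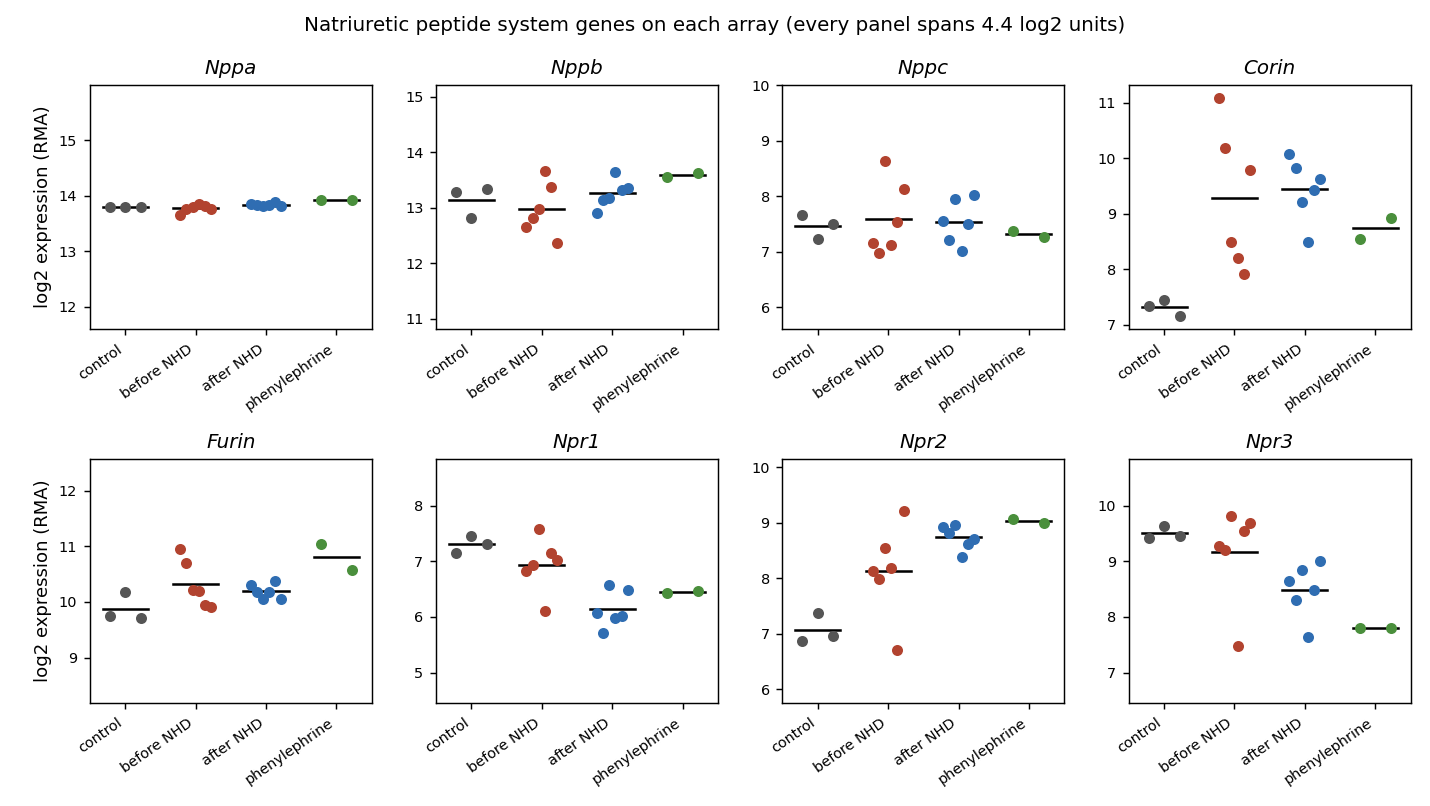
Log2 expression (vertical) of the 8 genes on each array by group, with points for arrays in order of replicate number and a line at the group mean. Every panel spans the same 4.4 log2 units, so that the flat rows of Nppa and the spread of Corin between 7.16 and 11.08 can be compared by eye.

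Of the receptors, Npr2, the CNP receptor (probe set 10868552), was higher after NHD and with phenylephrine than with control plasma. It read 6.87, 7.38 and 6.95 with control plasma and 9.07 and 9.0 with phenylephrine. Before NHD it ran from 6.70 through 8.16 to 9.20, and after NHD from 8.38 through 8.76 to 8.95. All after NHD and phenylephrine arrays lay above all controls, as did 5 of the 6 before NHD arrays, the exception being replicate 5.

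After NHD Npr2 was 3.17-fold above control plasma (1.66 ± 0.35, n = 6 and 3, adjusted p = 0.00251), and this passed under all 24 alternatives. With phenylephrine it was 3.90-fold above control plasma (1.96 ± 0.45, n = 2 and 3, adjusted p = 0.00679). That call was lost only without phenylephrine replicate 1 or 2 (1.93 and 2.0), which leaves 1 array in that group. Before NHD the difference of 1.06 ± 0.35 did not pass (adjusted p = 0.0802). It passed without before replicate 5 (1.34, adjusted p = 0.00117), in a fit where 5101 probe sets were called in place of 1439. The order of the means was control, before NHD, after NHD and phenylephrine (7.07, 8.13, 8.73 and 9.03), and no 2 neighbours in this order differed past the threshold.

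Npr1, the receptor of ANP and BNP (probe set 10824655), was lower after NHD than with control plasma. It lay between percentiles 27.3 and 58.7 of the arrays, a range without detection calls here. It read 7.15, 7.45 and 7.32 with control plasma and 6.43 and 6.47 with phenylephrine. With before NHD plasma it ran from 6.10 through 6.98 to 7.59, and after NHD from 5.71 through 6.04 to 6.58. All after NHD and phenylephrine arrays lay below all controls.

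After NHD Npr1 was 2.24-fold below control plasma (-1.16 ± 0.24, n = 6 and 3, adjusted p = 0.00253). This passed under all 23 alternatives that held it, since its level left it out of the brighter probe sets. With phenylephrine it was at -0.85 ± 0.31 and did not pass (adjusted p = 0.0671). It did so under 5 alternatives, such as without before replicates 3 or 4 (adjusted p = 0.0418 and 0.0193). Leaving out either of these arrays left the difference itself at -0.85. Before NHD it was at -0.37 ± 0.24 (adjusted p = 0.356).

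Npr1 also had the smallest p of the 8 genes between both NHD groups. After NHD it was 0.80 ± 0.20 log2 units lower than before NHD (95% interval -1.21 to -0.38, n = 6 and 6), with 4 of 6 after NHD arrays below all before NHD arrays. The adjusted p of 0.074 did not pass. It passed without before replicate 4 (-0.96, adjusted p = 0.00298) and without before replicate 6 (-0.78, adjusted p = 0.0339), and was as high as 0.192 under other alternatives. Before replicate 4 was the lowest of its group at 6.10, close to the 5.99 of after replicate 4.

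Npr3, the clearance receptor (probe set 10821991), had its lowest group mean with phenylephrine, 7.80, although before and after replicates 4 were lower still. It read 9.43, 9.64 and 9.46 with control plasma and 7.80 on both phenylephrine arrays. Before NHD it ran from 7.48 through 9.41 to 9.82, and after NHD from 7.64 through 8.57 to 9.01. All after NHD and phenylephrine arrays lay below all controls, and so did before replicates 1, 2 and 4, at 9.27, 9.20 and 7.48.

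With phenylephrine Npr3 was 3.27-fold below control plasma (-1.71 ± 0.51, n = 2 and 3, adjusted p = 0.0273). The call was lost when any phenylephrine or control array was left out (adjusted p = 0.133 and 0.134, and 0.0611 to 0.062). After NHD Npr3 was at -1.02 ± 0.39 against control plasma and did not pass (adjusted p = 0.063). It passed under 5 alternatives, among them without before replicate 4 (adjusted p = 0.00378), which left the difference itself at -1.02. Against before NHD it was at -0.68 ± 0.32 (adjusted p = 0.273), and at -1.02 without before replicate 4 (adjusted p = 0.00663). In that fit 2648 probe sets passed in place of 116.

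Markers of non-myocytes differed between the arrays low in Npr3. The mean level of 12 fibroblast markers was 6.86 and 6.93 on before and after replicates 4, 9.24 and 9.50 with phenylephrine, and 7.71 to 7.85 with control plasma. Npr3 was between 7.48 and 7.80 on the first 4 of these arrays, which were picked for low Npr3. Before replicates 2 and 5, at 6.70 and 6.85 in fibroblast markers, had Npr3 of 9.20 and 9.55. Before replicates 3 and 6, at 9.14 and 9.26, had 9.82 and 9.70. The mean of 11 endothelial markers was 6.44 and 6.51 on before and after replicates 4. It was 7.33 to 7.40 with phenylephrine and 6.85 to 6.91 with control plasma. Single endothelial markers differed widely, from Emcn at 5.13 to 5.82 and Pecam1 at 5.84 to 7.0 to Kdr at 6.66 to 10.05 and Eng at 7.85 to 10.96 over the 17 arrays. The part of these cells in the Npr3 values was not tested.

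**Figure D3:**
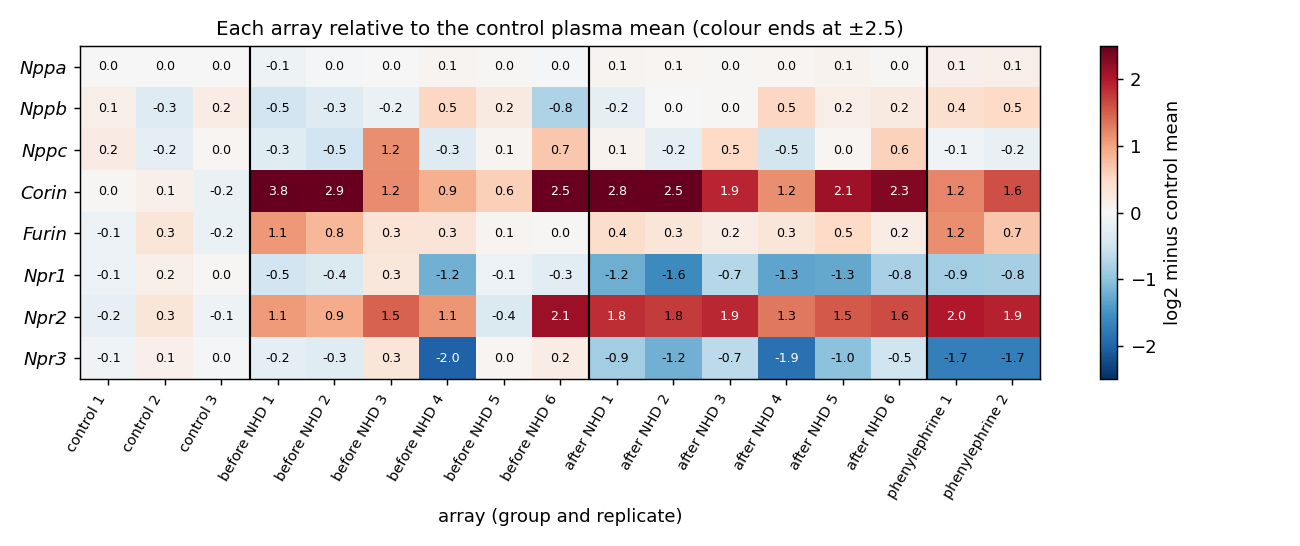
Log2 level of each gene (rows) on each array (columns) minus the mean of the 3 control arrays, with values written in the cells and red for higher, blue for lower. Corin and Npr2 are above control on nearly every treated array, Npr1 and Npr3 below control on every after NHD and phenylephrine array, and before NHD replicate 4 has the pattern of after NHD replicate 4.

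Counted over the 8 genes, after NHD plasma against control plasma gave 3 calls, Corin and Npr2 higher and Npr1 lower. The background in this comparison was high, with 28.2% of 29214 probe sets called (12.9% higher, 15.3% lower). Phenylephrine against control plasma also gave 3 calls, Furin and Npr2 higher and Npr3 lower, beside 18.7% of probe sets (8.54% higher, 10.2% lower). Before NHD against control plasma gave 1, Corin, which was higher, beside 4.93% (2.88% higher, 2.05% lower). These comparisons share the 3 control arrays. The groups did not overlap for 5, 7 and 1 of the 8 genes in these comparisons, against 33.4%, 56.9% and 8.39% of all probe sets.

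After against before NHD gave 0 of 8 calls, beside 0.397% of probe sets called by limma (0.288% higher, 0.11% lower), and 0 of 8 genes without overlap, beside 0.644%. Before adjustment 2 of the 8, Npr1 and Npr2, had a p under 0.05, as did 18.5% of all probe sets. Phenylephrine against before NHD also gave 0 calls, beside 4.34% (1.98% higher, 2.36% lower), with 3 before adjustment (Nppb, Npr2 and Npr3) beside 19.2% of probe sets. Phenylephrine against after NHD gave 0 beside 0.979% (0.483% higher, 0.496% lower), with 1 before adjustment (Furin) beside 11.8%. In these comparisons 1 gene, Nppa, and 3 genes, Nppa, Furin and Npr2, did not overlap, beside 16.5% and 24% of probe sets. The intervals of these differences were wide, from -2.04 to 0.63 for Corin and from -1.65 to 0.27 for Npr3 against after NHD plasma. The median log2 difference of the 8 genes was 0.10 after NHD against control plasma, 0.06 before NHD and 0.29 with phenylephrine, against -0.077, -0.06 and -0.074 for all probe sets.

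**Figure D4:**
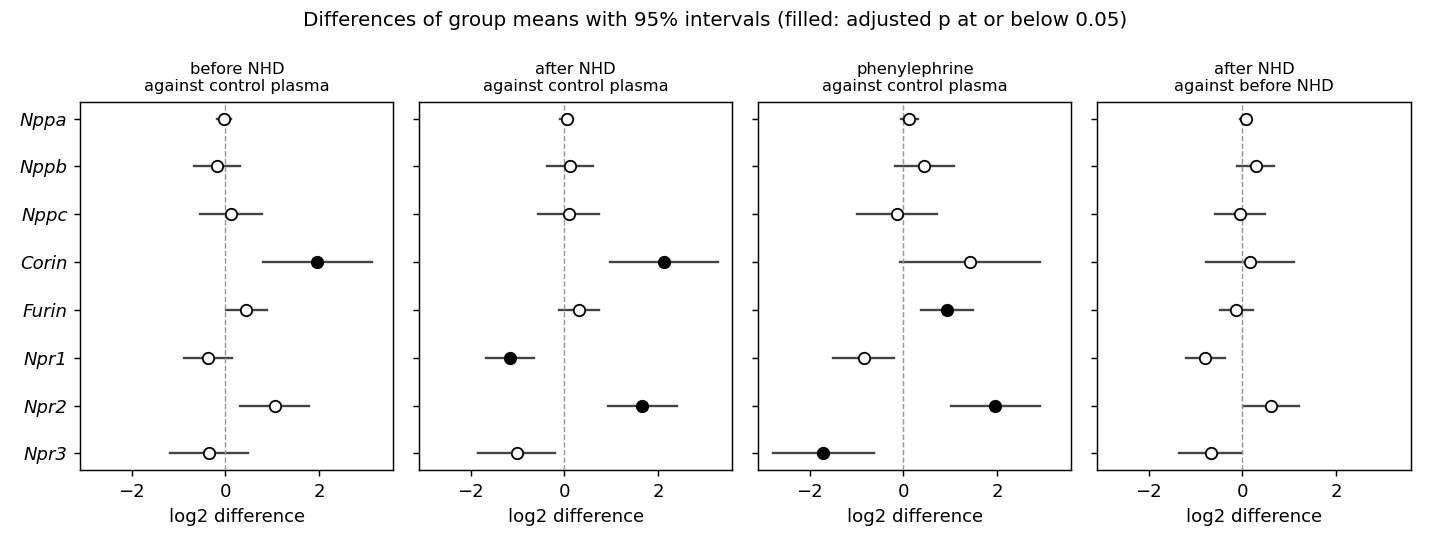
Log2 difference of group means (horizontal) for each gene in 4 comparisons, with 95% intervals from the fit of all arrays. Filled points passed the adjusted threshold of 0.05: Corin in 2 panels, Npr2 in 2, and Npr1, Furin and Npr3 in 1 each.

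The genes that followed each called member most closely over the 17 arrays were found by the root mean square (RMS) difference of their values, each gene's own mean subtracted. For Corin, whose own RMS deviation was 1.078 log2 units, they were Kdr (0.44), Adra1b, an alpha-adrenergic receptor (0.463), and Tppp (0.476). Kdr, a receptor of vascular growth factor, had group means of 6.97 with control plasma, 8.77 before NHD, 8.56 after NHD and 8.87 with phenylephrine. For Npr2 they were Lrpap1, Septin8 and Fundc1 (0.193 to 0.213, against its own 0.792), and for Npr1 Tmem43, Alcam and Tap1 (0.182 to 0.195, against 0.552). For Npr3 they were Cbr1, Ephx1 and Slc27a3 (0.283 to 0.335, against 0.76), and for Furin Chsy1, Apba1 and Calcoco1 (0.162 to 0.195, against 0.367). These are descriptions of the same arrays, and no test was made.

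Around these genes, 52 of 54 listed genes of peptide processing and clearance, related ligands, cyclic GMP signalling and Nppa and Nppb transcription were measured. After NHD 14 were higher and 4 lower than with control plasma, with phenylephrine 8 higher and 2 lower, and before NHD 3 higher and 0 lower. Of all probe sets, 12.9% were higher and 15.3% lower after NHD, 8.54% and 10.2% with phenylephrine, and 2.88% and 2.05% before NHD. Of probe sets with a mean of 9 to 13, a band that does not hold all listed genes, 44.2%, 32.6% and 9.32% were called in either direction. Median log2 differences of the listed genes were 0.16, 0.12 and 0.18. After against before NHD gave 0 of 52 in either direction, beside 0.397% of all probe sets.

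Among 10 measured genes of processing and clearance, Pcsk6 stood out. Its product, a convertase, activates corin in mouse and human cells. It ran from 7.04 to 7.19 with control plasma, 7.59 to 8.48 before NHD, 8.01 to 9.29 after NHD and 9.10 to 9.40 with phenylephrine. No array of the other groups overlapped the controls. Log2 differences from control were 1.02 ± 0.28, 1.61 ± 0.28 and 2.13 ± 0.36 (adjusted p = 0.0443, 0.000843 and 0.00117). With phenylephrine Pam, an enzyme of secretory granules that is abundant in atrial myocytes, was 0.62 ± 0.19 above control and Ace, the angiotensin-converting enzyme, 1.59 ± 0.46.

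In the cyclic GMP list 6 of 18 genes were higher and 1 lower after NHD than with control plasma. Of all probe sets 12.9% were higher and 15.3% lower there. Of those with a mean of 9 to 13, 44.2% were called in either direction. Pde3a lay in that band (mean 9.42), whereas Pde2a, Prkg1 and Pde1c lay under it (8.14, 8.83 and 5.9). Pde2a, a phosphodiesterase that cyclic GMP stimulates, ran from 7.0 to 7.12 with control plasma, 6.96 to 8.57 before NHD, 8.34 to 8.69 after NHD and 9.77 to 9.80 with phenylephrine. It was called for phenylephrine against all 3 plasma groups (2.72 ± 0.32, 2.03 ± 0.28 and 1.28 ± 0.28 against control, before and after NHD, adjusted p = 0.000205, 0.00145 and 0.0388). The last call was lost in 11 of the fits that left out 1 array, with adjusted p up to 0.459. Pde3a, a phosphodiesterase that cyclic GMP inhibits, was 1.55 ± 0.28 above control after NHD and 1.14 ± 0.28 before NHD. Prkg1, the cyclic GMP-dependent kinase, was 0.75 ± 0.15 below control after NHD (adjusted p = 0.00242), with arrays at 8.36 to 8.62 against 9.04 to 9.45, and Pde1c was 0.63 ± 0.15 above.

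Among 18 measured transcription regulators, 6 were higher and 2 lower after NHD than with control plasma. The shares of all probe sets were 12.9% and 15.3%, and 44.2% of those with a mean of 9 to 13 were called. Gata4, a cardiac transcription activator, was 1.46 ± 0.30 above control (adjusted p = 0.00226). Its arrays lay between 11.62 and 12.03 after NHD and between 10.19 and 10.62 with control plasma. Hdac5, a repressor of growth genes in the heart, was higher before NHD (0.50 ± 0.12), after NHD (0.73 ± 0.12) and with phenylephrine (0.89 ± 0.16). Hand2 was lower after NHD (-0.60 ± 0.15) and with phenylephrine (-0.67 ± 0.19), where Hopx was higher (1.62 ± 0.44). All 3 before NHD calls were lost in 7 to 13 fits that left out 1 array, with adjusted p up to 0.189, and those of Pam, Ace, Hopx, Hand2 and Pde3a with phenylephrine in 3 to 5 (up to 0.167). Of 6 related ligands and receptors, 0 were higher and 1 was lower after NHD and with phenylephrine. It was Guca2a, which encodes the peptide guanylin (-0.50 ± 0.15 and -0.65 ± 0.20), named after its values were seen.

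**Figure D5:**
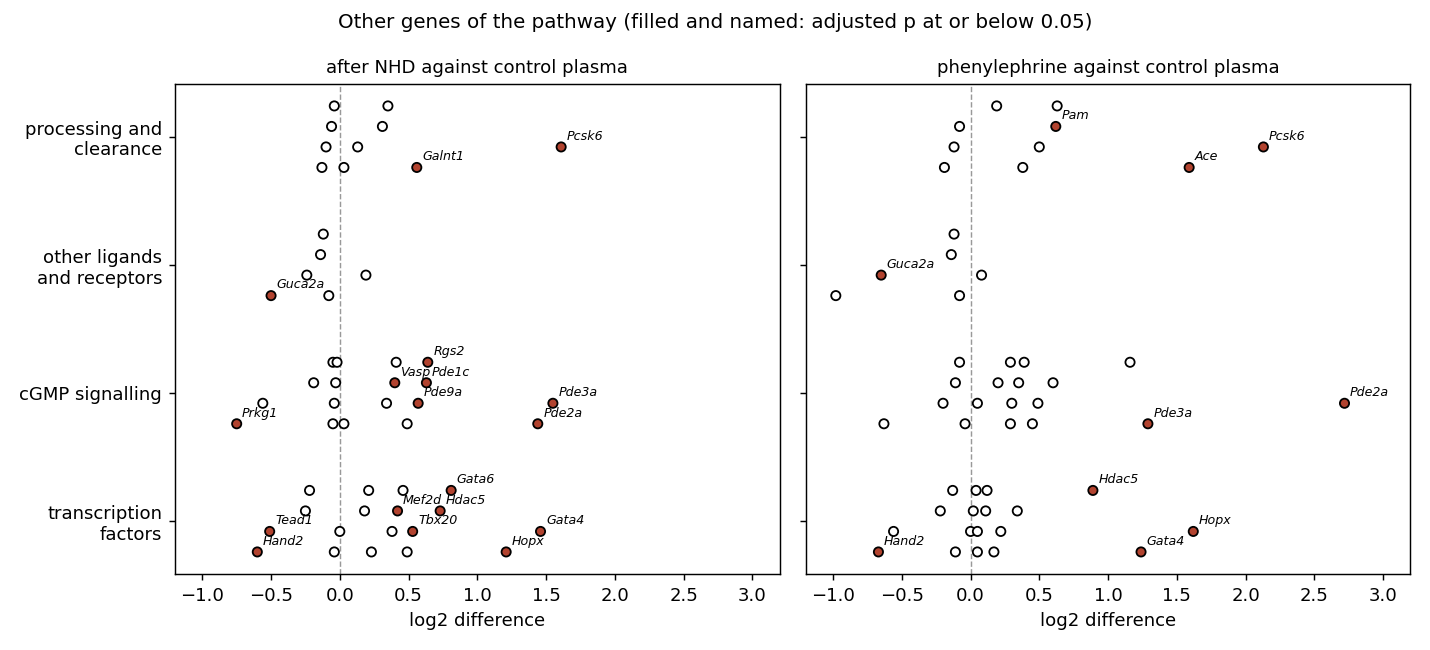
Log2 difference from control plasma (horizontal) of the other genes of the pathway in 4 lists (rows, with points staggered for legibility) after NHD (left) and with phenylephrine (right). Filled, named points passed the adjusted threshold. Pcsk6 at 1.61 and 2.13 and Pde2a at 1.44 and 2.72 lie farthest right in their lists in at least 1 panel.

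Cell type markers also differed between groups. Against control plasma, 12.9% of all probe sets were higher and 15.3% lower after NHD, and 8.54% and 10.2% with phenylephrine. Of probe sets with a mean of 9 to 13, 44.2% and 32.6% were called in either direction. Of 12 myocyte markers, 6 were higher and 0 lower after NHD than with control plasma, and their mean level was 12.98 to 13.14 against 12.59 to 12.61. Of 10 markers more typical of atrial myocytes, such as Myl7 and Sln, 5 were higher and 0 lower, both after NHD and with phenylephrine, with a mean level of 8.19 to 8.70 and 8.40 to 8.50 against 7.74 to 7.79. The mean of 12 fibroblast markers was 7.71 to 7.85 with control plasma, 6.93 to 9.15 after NHD and 9.24 to 9.50 with phenylephrine, with a median log2 difference from control of 0.34 and 1.58. Of these markers 1, S100a4, was higher in each comparison. Of 9 smooth muscle markers Cnn1 was lower after NHD, and with phenylephrine Acta2 was lower and Rgs5 higher. Of 11 endothelial markers Kdr was higher after NHD, and Kdr and Cdh5 with phenylephrine, and 0 of 10 leukocyte markers passed in either comparison. Before NHD, 3 of 12 myocyte, 2 of 10 atrial and 1 of 11 endothelial markers were higher than with control plasma. No marker was lower there, and no fibroblast, smooth muscle or leukocyte marker passed. In that comparison 2.88% of all probe sets were higher and 2.05% lower, and 9.32% of those with a mean of 9 to 13 were called. The part of these marker shifts in the values of Corin, Furin, Npr1, Npr2 and Npr3 was not tested.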

How the data were processed

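Values of 17 arrays were used as deposited. Per the submitters' processing notes, the authors made these log2 values with RMA, which corrects background, equalises the arrays' distributions and joins probes into sets. Neither a version of RMA nor how probes were assigned to sets was found in the labels. Platform annotation, updated through RefSeq, gave 1 symbol to 15310 of 29214 probe sets, several to 323 and none to 13581, and the brightest probe set stood for its gene. Groups and replicate numbers came from sample titles. For before NHD samples whose titles carry 2 numbers, the last was used. A linear model of the 4 groups was fitted to all probe sets with limma 3.58.1 in R 4.3.3 (lmFit and eBayes), on 13 residual degrees of freedom with a prior of 3.32. Tests were two-sided, with Benjamini-Hochberg adjustment over all 29214 and a threshold of 0.05. Intervals are 95%, and each SE pools the unequal spread of the groups. The fit was tried on simulated data with independent noise of equal spread in all groups, for after against before NHD only. Such data lack the unequal spread and the close pair of the real arrays. Named genes were the 8, up to 8 called pathway genes per comparison by smallest p, and 3 like genes per called member. The 8 genes, the lists and the tests were chosen with earlier results of these data known. No batch is given in the labels.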

Additional observations from a re-analysis of the deposited data

Results flagged for a closer look

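In the 16 groups of 6 arrays that could be examined (before and after NHD for 8 genes), 1 value lay far from the rest. Npr3 on before replicate 4 was 7.48, while the other before NHD arrays lay between 9.20 and 9.82, a gap of 0.734 of the whole range. The rule used, Dixon's ratio of gap to range, flags about 1 group in 20 by chance at its cutoff. This is the rate of the cutoff and not of a gap this wide. On the same array Npr1 (6.10) was also the lowest and Nppb (13.66) the highest of its group, and after replicate 4 read 7.64, 5.99 and 13.65 for Npr3, Npr1 and Nppb.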

How the results depend on the processing

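Alternatives were the brighter probe sets, quantile normalization applied once more, a prior that was trended and robust, fits of the compared groups only, the replicate number as a block, each array's SD as a term, leaving out the samples numbered 4, and leaving out each array. The block joined arrays of all 4 groups by number, although the labels link no numbers across groups. No member had a further probe set to try. The number of members called was 3 or 4 for after NHD against control plasma throughout. Leaving out 1 array gave 0 to 2 calls for after against before NHD, 3 to 4 for after NHD and 0 to 2 for before NHD against control plasma, 0 to 4 for phenylephrine against control plasma, 0 to 1 against before NHD and 0 to 0 against after NHD. With the compared groups only, the count was 0 for before NHD against control plasma, 5 for phenylephrine against control plasma and 1 for phenylephrine against after NHD. With a replicate block it was 1 for after against before NHD (Npr1, adjusted p = 0.0488), 2 for before NHD against control plasma (Corin and Npr2, the latter 1.19, adjusted p = 0.0336) and 2 for phenylephrine against before NHD (Nppb 0.86 and Npr3 -1.45, adjusted p = 0.0288 and 0.00628). With the SD term it was 0 for before NHD against control plasma. Without the samples numbered 4 it was 2 for after against before NHD, 2 for phenylephrine against before NHD and 1 against after NHD.

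Only uncalled differences changed direction. Nppa in before NHD against control plasma was 0.02 with the second normalization, and Nppb in after NHD against control plasma -0.05 with the block and -0.05 to 0.21 with 1 array left out. Nppc turned to 0.10 (phenylephrine against control plasma) and 0.0018 (against after NHD) with the block, and to -0.05 (before NHD) and -0.17 (after NHD against control plasma) with the SD term. With 1 array left out, Nppc ran from -0.17 to 0.16, -0.07 to 0.26 and -0.03 to 0.19 in after against before NHD, before NHD and after NHD against control plasma, Corin in after against before NHD from -0.11 to 0.52 and Nppa in before NHD against control plasma from -0.04 to 0.00038. The cause was not tested. Counts of all probe sets with 1 array left out ran from 0 to 2690 for after against before NHD, 0 to 5101 for before NHD and 4547 to 8862 for after NHD against control plasma. For phenylephrine they ran from 1621 to 6330 against control plasma, 71 to 2377 against before NHD and 16 to 417 against after NHD. For after against before NHD, before NHD and after NHD against control plasma, and phenylephrine against control, before NHD and after NHD plasma, 116, 1439, 8238, 5471, 1268 and 286 probe sets were called. With the compared groups only these were 0, 0, 10313, 9072, 34 and 966, with the replicate block 316, 3329, 9055, 7326, 2447 and 694, and with the SD term 65, 2, 3015, 4155, 2022 and 360. The samples numbered 4 left out gave 2677 for after against before NHD and 2399 and 465 for phenylephrine against before and after NHD, and the brighter probe sets 393 for after against before NHD. With 1 array left out, pathway genes called higher than with control plasma ran from 6 to 15 after NHD, 0 to 10 before NHD and 3 to 8 with phenylephrine. They were 16, 0 and 14 with the compared groups only, 14, 8 and 10 with the replicate block, 5, 0 and 6 with the SD term, and 16, 5 and 8 without the samples numbered 4.

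The labels tie same-numbered before and after samples to no shared source. Their deviations from the group means correlated at 0.422, 0.599 and 0.571 for numbers 2, 3 and 4, and unlike numbers at most 0.354. Numbers 6, 1 and 5 gave 0.251, 0.099 and -0.0254. The main fit ignored pairs.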
